A study of Rattus norvegicus with 15 samples.

Results

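Removal of glial cell line-derived neurotrophic factor (GDNF) for 18 h was compared with continued GDNF in cultured rat spermatogonial stem cells, the cells of the testis that renew themselves and found the sperm lineage. The comparison took 6 of the 15 arrays of the series, chosen by their titles: 3 labelled as GDNF withdrawal and 3 labelled as GDNF control. All cultures had first been expanded for 1 month in a medium without serum but with GDNF. The withdrawal cultures then spent 18 h without the factor, whereas the control cultures kept it. The other 9 arrays came from cultures that had GDNF back for 2, 4 or 8 h after the same withdrawal, and they served here to estimate the spread and, with the other 6, to decide which probe sets were bright enough to test and which one stands for a gene. The labels describe the replicates of a group as independent cultures. They do not say how the control cultures were handled at the time of withdrawal, so the loss of GDNF and any change of medium that went with it cannot be told apart.

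GDNF binds a GFRA co-receptor on the cell surface, and the complex activates the receptor tyrosine kinase RET. RET passes the signal through adaptor proteins to the RAS and ERK cascade, to SRC family kinases and to PI3 kinase and AKT, which holds FOXO transcription factors out of the nucleus. In the mouse and rat testis GDNF comes from somatic cells, Sertoli cells among them, and is known for maintaining undifferentiated spermatogonia, in part through genes such as Bcl6b, Etv5 and Id4.

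Each array held 31099 probe sets, with deposited intensities on a linear scale. Between 50.1% and 50.4% of the probe sets reached an intensity of 16, and the lowest correlation between arrays of 1 group was 0.994. The number of arrays limits the precision. Along the main axis of variation within groups, which carried 25.2% of that variation, replicate 1 of the withdrawal, 4 h and control groups lay lowest (-0.487, -0.394 and -0.323). These 3 arrays are called the 3 low arrays below, and calls lost without them are given where they arise. Of the markers that define undifferentiated spermatogonia, Sall4, Ret, Id4, Etv5 and Uchl1 were measured, but the probe sets of Gfra1 read under 16 on all 6 arrays (7.65 to 11.4 after withdrawal and 6.92 to 9.28 in the control) and gave no test. None of 14 immune and blood markers passed the low-value filter. A gene is represented by its brightest tested probe set, and a gene is said to have risen or fallen where limma's adjusted p was under 0.05. Of the 9002 named genes tested, 36 read under 16 on all 6 arrays and were tested only because of the 9 others, 5 of them called. Another 30 passed the low-value filter only through the control arrays, 13 of them called, and 20 only through the withdrawal arrays, 7 of them called, so their difference was partly built in. In the lists these called genes were Gfra3, S100a3, Fhl2, Dhh, Kdr, Nr1h3 and Sqor, named here after their values were seen. In bulk RNA, fewer cells of a type and less RNA per cell cannot be told apart.

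Withdrawal changed many transcripts by small amounts and few by large ones, and the large changes were mostly losses. Of 9002 named genes tested, 2211 (24.6%) passed the threshold, 1238 higher (13.8%) and 973 lower (10.8%) after withdrawal. At 2-fold or more the balance turned, with 15 genes higher (0.167%) and 81 lower (0.9%). The withdrawal and control arrays did not overlap for 3482 genes (38.7%), against 34.3% of all tested probe sets. Over the 15856 tested probe sets the counts were 3342 called (21.1%), 1809 higher (11.4%) and 1533 lower (9.67%), of which 21 (0.132%) and 122 (0.769%) were at least 2-fold. Without the 3 low arrays the called probe sets were 1173 higher and 1243 lower. Of 51 measured array control probe sets, which took no part in the test, 44 averaged higher after withdrawal, 20 of them with every withdrawal array above every control array, and 3 had every withdrawal array below. Their part in the counts was not tested. The median fold of the called probe sets was 1.25, and the median log2 change of all named genes was 0.02. Shares of called members in the lists below are to be read against 13.8% higher and 10.8% lower.

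**Figure D1:**
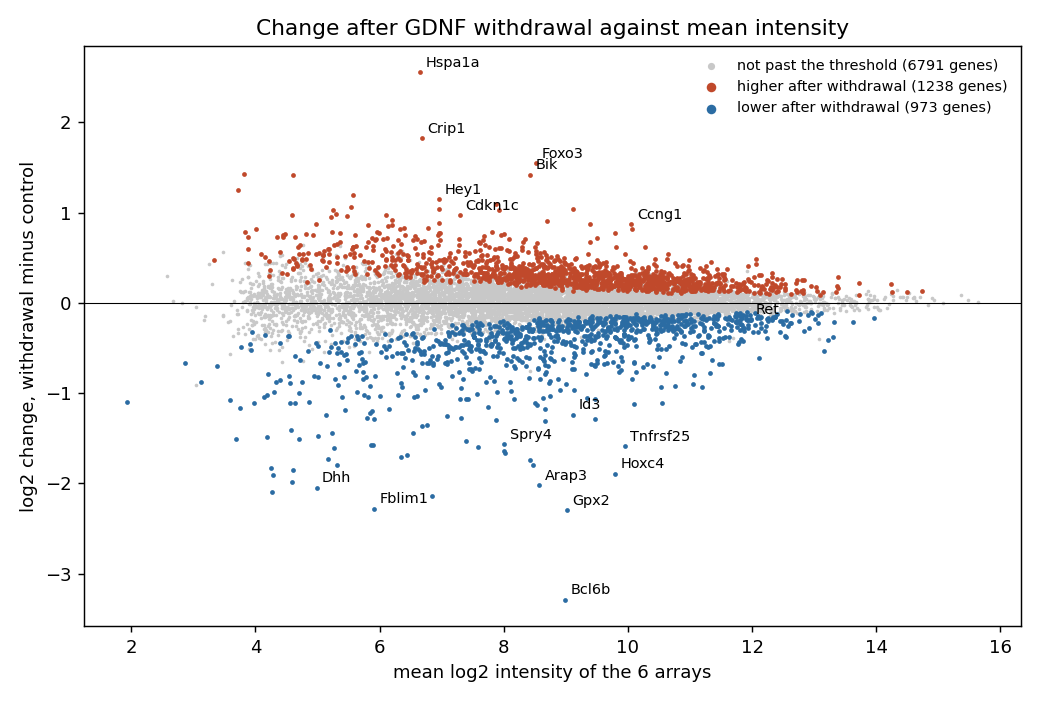
Log2 change (withdrawal minus control, vertical axis) against mean log2 intensity of the 6 arrays (horizontal axis) for 9002 named genes, coloured by whether limma called them. The points below -1 outnumber those above 1, and Bcl6b lies lowest at -3.29.

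The receptors and ligands of the GDNF family were mostly too dim to test. The 4 tested members were all lower after withdrawal, with a median log2 change of -0.59. However, 1 of them, Gfra3, was too dim to rank on the 6 arrays and was tested only because of the arrays with GDNF back. The count and the median rest partly on it. Ret had intensities of 3954, 3776 and 3609 after withdrawal, against 4475, 4033 and 4394 in the control. The groups did not overlap, but the difference was small, 1.14-fold (log2 change -0.19 ± 0.04 SE, limma adjusted p = 0.00664). Its other probe sets differed by -0.06 and -0.16 on the log2 scale and missed the threshold (adjusted p = 0.597 and 0.0806), and with only the 6 arrays in the fit Ret itself was at 0.062. Nrtn encodes neurturin, a ligand of the same family, and stood at 1151, 1196 and 1199.8 after withdrawal, against 1760.3, 1485 and 1820.0 in the control (1.42-fold lower, adjusted p = 3.12e-05). Gfra2, the co-receptor that prefers neurturin, had 69.7, 102 and 96.9 after withdrawal and 132, 144 and 144 in the control, which was 1.58-fold lower (adjusted p = 0.0014). In both genes every withdrawal array lay below every control array. Gfra3, the co-receptor for artemin, read under 16 on all 6 arrays and gets no fold. Its call was lost without withdrawal replicate 2 or without the 3 low arrays (adjusted p = 0.0697 and 0.0605).

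Few proximal signalling genes were called. Of 20 adaptors and SRC family members, 1 rose and 2 fell, with a median log2 change of -0.11. The docking adaptor gene Gab1 rose 1.28-fold (1488, 1346 and 1398 after withdrawal, against 1074, 1091 and 1140.5 in the control, adjusted p = 0.000129). The 2 falls, Csk and Shc1, were each lost when single arrays were left out, and 1 fall was left without withdrawal replicate 2 or 3 or control replicate 1 or 2. Of 18 members of the RAS to ERK cascade, 2 rose and 3 fell, near the background. The RAS GTPase-activating protein genes went both ways: Rasa3 rose 1.54-fold (adjusted p = 0.000657) and Rasa1 fell 1.3-fold (adjusted p = 0.000186). Without withdrawal replicate 1 or control replicate 2, 1 of the 2 rises was left.

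Some genes known as transcriptional outputs of the ERK cascade had larger falls than its components did. Of 11 negative feedback genes 5 fell and 1 rose, with a median log2 change of -0.24, and without control replicate 3 or without the 3 low arrays the falls numbered 3. Spry4, which encodes an inhibitor of receptor tyrosine kinase signalling, had 156, 141 and 154 after withdrawal, against 431, 452 and 446 in the control. The arrays of each group lay close together and the groups far apart, a 2.96-fold difference (log2 change -1.56 ± 0.08 SE, adjusted p = 5.11e-09). Dusp6, the ERK phosphatase gene, was bright in both groups, at 2325, 2291 and 2299 after withdrawal and 3828, 3445 and 3783 in the control, with no overlap and a 1.6-fold fall (adjusted p = 1.23e-08). Errfi1, an inhibitor of the EGF receptor, was the member that rose (1.22-fold, adjusted p = 0.00242).

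ETS transcription factors, many of which ERK phosphorylates or induces, were called in 10 of 16 tested members, 8 lower and 2 higher, with a median log2 change of -0.24. Elk3, which with Elk4 belongs to the ternary complex factors that bind DNA beside SRF, had 265, 268 and 222 after withdrawal and 541, 530.1 and 572 in the control. Its 2.18-fold fall (adjusted p = 1.03e-07) exceeded that of Elk4 (1.49-fold, adjusted p = 6.69e-05), whose other probe sets were at log2 changes of -0.35 (adjusted p = 0.013) and -0.38 (adjusted p = 0.0549). Etv5, a GDNF-responsive gene in mouse spermatogonial stem cells, had 549.6, 513 and 480.1 after withdrawal, against 993, 633 and 672 in the control. The spread of its control arrays was wide, with replicate 1 well above the other two, and the 1.46-fold fall (adjusted p = 0.00698) was at 0.064 with only the 6 arrays in the fit. Ets2 fell 1.38-fold (adjusted p = 0.00524). Erg, an ETS gene best known in endothelium and blood, went the other way: 63.9, 68.4 and 55.7 after withdrawal, against 32.2, 29.1 and 34.9 in the control, a 1.95-fold rise with no overlap (adjusted p = 0.000117). The second rise, that of Ets1, was lost without withdrawal replicate 1 or 3.

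Immediate early genes, which growth factors induce without new protein synthesis, fell in 13 and rose in 1 of 27 tested members, with a median log2 change of -0.31, and leaving out single arrays left 10 to 13 falls. The largest falls were close in size. Arc, the cytoskeleton-associated immediate early gene, had 46.3, 46.0 and 45.3 after withdrawal, against 77.6, 74.5 and 88.9 in the control (1.75-fold, adjusted p = 3.37e-05). The small MAF gene Maff had 114, 105 and 108 after withdrawal and 197, 174 and 199.9 in the control (1.75-fold lower, adjusted p = 8e-05). Zfp36, whose protein tristetraprolin destabilises AU-rich messages, had 739.7, 728 and 667 after withdrawal, against 1242, 1108 and 1285 in the control (1.7-fold lower, adjusted p = 5.41e-07). In all 3 genes the withdrawal arrays lay within a narrow band below every control array. Nab2, a corepressor of EGR proteins that EGR1 itself induces, fell 1.68-fold (adjusted p = 3.34e-06). Klf10 belongs to a list of Krüppel-like and SP factor genes, in which 3 of 14 tested members fell and 2 rose, with a median of -0.03. It had 2073, 1893 and 1906 after withdrawal and 3447, 3192 and 3441 in the control (1.72-fold lower, adjusted p = 2.89e-07). Gadd45b, a stress-responsive gene, was the immediate early member that rose (1.29-fold, adjusted p = 0.00196).

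SRF with its ternary complex partners drives many immediate early genes through the CArG box. In the 250 bases upstream of the start, on both strands, a CArG box was present in 2 of the 11 fallen immediate early genes with a RefSeq promoter (Zfp36 and Egr1, of which Egr1 is named after its values were seen). It was present in 4 of all 23 tested immediate early genes with a promoter, fallen or not, and in 1.5% of all 33469 promoters. The match is a description of the sequence and no test of a site. The Zfp36 promoter is shown because the box lies close to the start, 32 bases upstream at its first base, with the box in capitals (RefSeq, GRCr8, chr1:92799109-92799358, minus strand, printed 5′ to 3′ along the gene).
Zfp36 promoter: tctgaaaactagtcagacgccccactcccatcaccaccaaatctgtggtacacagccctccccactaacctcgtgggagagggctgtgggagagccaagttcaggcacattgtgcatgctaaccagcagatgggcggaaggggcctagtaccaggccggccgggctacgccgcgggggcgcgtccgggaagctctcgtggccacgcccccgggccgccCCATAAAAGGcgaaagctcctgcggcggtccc

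The ID proteins, which lack a DNA-binding region and hold E proteins away from DNA, were among the falls. Of 6 tested ID and E protein genes 4 were lower and 0 higher, with a median log2 change of -0.41, and leaving out single arrays left 3 or 4 falls. Id3 had 366, 312 and 410.1 after withdrawal, against 821, 851 and 882 in the control, a 2.36-fold fall (log2 change -1.24 ± 0.10 SE, adjusted p = 3.29e-07). Id1 had 227, 245 and 249 after withdrawal and 366, 383 and 353 in the control (1.53-fold lower, adjusted p = 0.00011). Id4, a marker of spermatogonial stem cells in the mouse, had 133, 119 and 78.6 after withdrawal, against 169, 177 and 173 in the control (1.6-fold lower, adjusted p = 0.00546). Its withdrawal replicate 3 lay well below the other two, and its dimmer probe sets were at log2 changes of -0.33 (adjusted p = 0.0372) and -0.05 (adjusted p = 0.898). Groups did not overlap for any of the 3 genes.

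**Figure D2:**
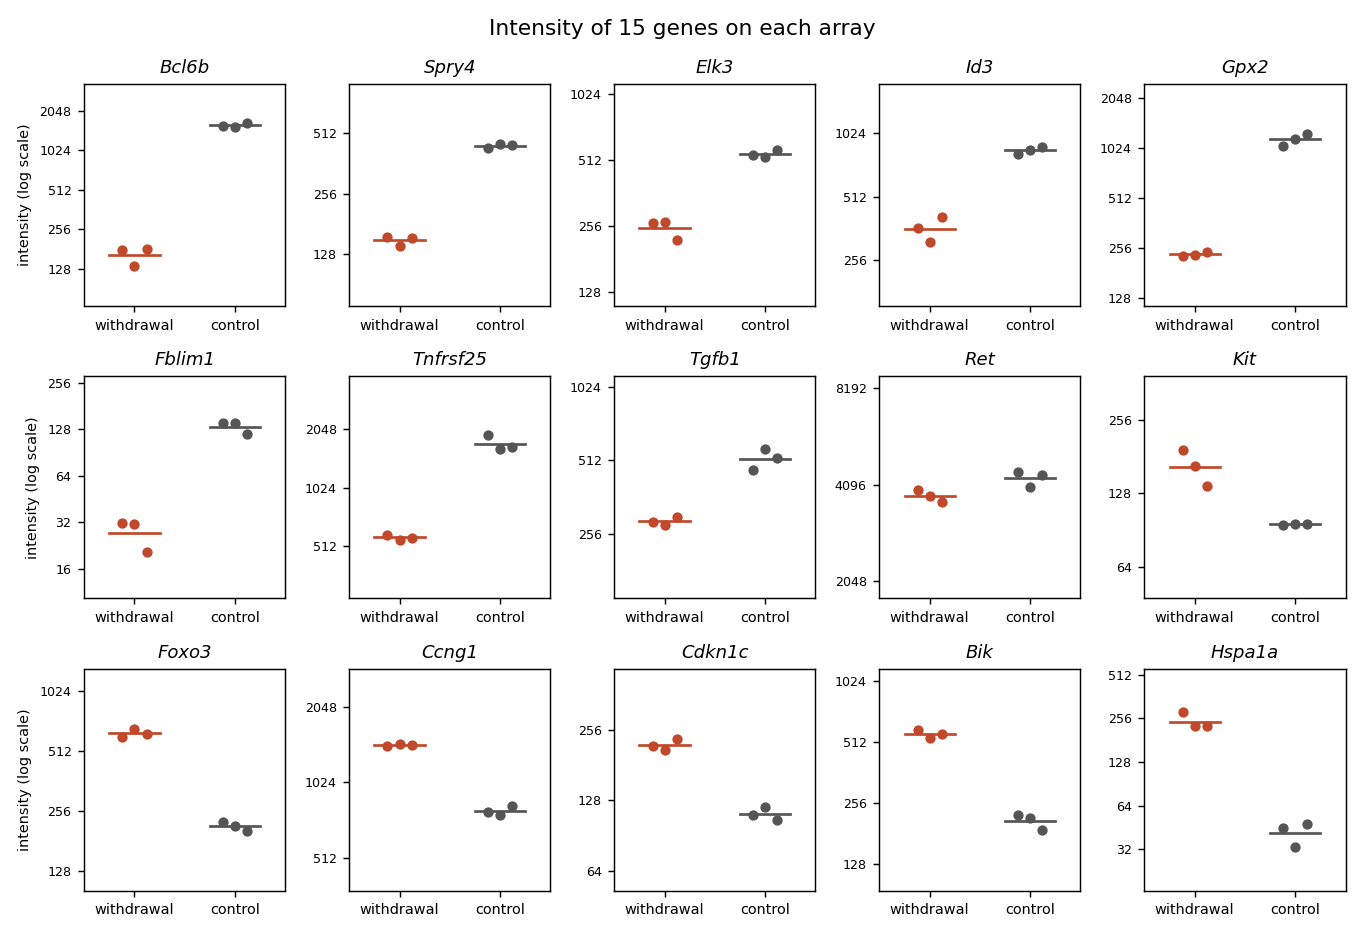
Intensity on each array (log axis, base 2) of 15 genes, with withdrawal on the left and control on the right of each panel. Points are the 3 arrays of a group and lines their geometric means. For each of these genes the 3 withdrawal arrays lie on 1 side of the 3 control arrays, below them for Bcl6b to Ret and above them for Kit to Hspa1a.

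Genes that mark undifferentiated spermatogonia were called in 17 of 22 tested members, and they did not all move one way: 13 were lower and 4 higher after withdrawal, with a median log2 change of -0.31. Leaving out single arrays left 12 or 13 falls and 4 rises. This list holds genes known to respond to GDNF, and the earlier results of these data were known when it was drawn up. Bcl6b, a BTB zinc-finger repressor, had 179, 133 and 179.6 after withdrawal, against 1571, 1547 and 1647 in the control (9.78-fold lower, adjusted p = 2.36e-11). Mcam, the cell adhesion molecule CD146, had 464, 484 and 408 after withdrawal and 931, 931 and 939 in the control, a 2.07-fold fall (adjusted p = 2.25e-08). Ccnd2, cyclin D2, had 332, 467 and 419.6 after withdrawal, against 707, 809.5 and 853 in the control (1.96-fold lower, adjusted p = 1.96e-05). No withdrawal array reached the lowest control array in any of the 3. Surface markers used to enrich these cells fell by less: Epcam 1.45-fold (adjusted p = 5.41e-07), the growth factor receptor gene Fgfr3 1.35-fold (adjusted p = 0.000179), the alpha 6 integrin gene Itga6 1.33-fold (adjusted p = 0.000448) and its beta 1 partner Itgb1 1.32-fold (adjusted p = 0.000512). A second probe set of Itgb1 was at -0.25 (adjusted p = 0.248).

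The 4 undifferentiated markers that rose were Cdh1, Sox3, Sall4 and Foxo1. E-cadherin, encoded by Cdh1, had 549, 535 and 494 after withdrawal, against 397, 351 and 397 in the control (1.38-fold, adjusted p = 0.00034). Sox3, needed for early spermatogonial development in the mouse, rose 1.32-fold (adjusted p = 0.000509). Sall4, a zinc-finger transcription factor of germ and pluripotent cells, had 688, 689 and 555 after withdrawal, against 544, 439 and 487 in the control (1.31-fold, adjusted p = 0.00601, and 0.0552 with only the 6 arrays). Foxo1, required for mouse spermatogonial stem cell maintenance, had 803, 757 and 695 after withdrawal and 579.7, 614 and 532 in the control (1.31-fold, adjusted p = 0.00366), while its dimmer probe set was at 0.26 (adjusted p = 0.452).

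Genes of differentiating and meiotic germ cells leaned upward, with 7 of 13 tested members higher, 1 lower and a median log2 change of 0.23. Kit, the stem cell factor receptor that appears as spermatogonia differentiate, had 193, 166 and 137 after withdrawal, against 94.9, 96.0 and 95.9 in the control. The control arrays lay close together and each withdrawal array was above them, a 1.71-fold rise (log2 change 0.78 ± 0.12 SE, adjusted p = 0.000279). Stag3, a cohesin subunit of meiosis, had 2637, 2801 and 2742 after withdrawal and 2061, 2048 and 2269 in the control (1.28-fold, adjusted p = 6.69e-05). Sycp2, a synaptonemal complex component, rose 1.3-fold (adjusted p = 0.0014). The retinoic acid receptor gene Rarg rose 1.46-fold (adjusted p = 0.0046), but was at 0.0787 without the 3 low arrays and 0.0627 with only the 6 arrays, and its dimmer probe set was at 0.28 (adjusted p = 0.0816). The 1 member that fell, Rara, was no longer called without withdrawal replicate 3 or control replicate 1, and without control replicate 2 there were 2 falls. Of 16 germ cell identity genes, Kit among them, 6 rose and 1 fell, with a median of 0.14. Tex15, needed for meiosis and transposon silencing in mouse, rose 1.22-fold (adjusted p = 0.000859) and Tex101, a germ cell surface glycoprotein gene, 1.19-fold (adjusted p = 0.00209). Tfap2c, a transcription factor of early germ cells, was the fall: 12.4, 10.3 and 14.5 after withdrawal, against 27.2, 25.5 and 23.3 in the control (2.06-fold, adjusted p = 0.00517), near the low end of the scale. Only 3 of 17 late germ cell genes on the array passed the low-value filter, and none was called.

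FOXO factors and genes known as their targets, which PI3 kinase and AKT signalling restrains, were higher in 11 of 27 tested members and lower in 3, with a median log2 change of 0.18. Foxo3 had 601, 665 and 623 after withdrawal, against 226, 216 and 203 in the control. Each withdrawal array was well above the highest control array, a 2.93-fold rise (log2 change 1.55 ± 0.08 SE, adjusted p = 5.11e-09). Cdkn1b, the cyclin-dependent kinase inhibitor p27, had 135, 144 and 142 after withdrawal and 99.97, 86.0 and 88.2 in the control (1.54-fold, adjusted p = 0.000978). Ddit4, which restrains mTORC1, had 1180.4, 1209 and 1186 after withdrawal, against 798, 828 and 822 in the control (1.46-fold, adjusted p = 7.95e-07). Trib1, a pseudokinase gene, moved against them at 19.22, 12.9 and 8.54 after withdrawal and 50.2, 40.2 and 49.1 in the control (3.6-fold lower, adjusted p = 0.000128), and Cited2 fell 1.56-fold (adjusted p = 0.000211). Without withdrawal replicate 3 the falls in this list numbered 5. The FOXO motif GTAAACA was found upstream of 1 of the 8 risen members with a promoter (Mxi1). It was found in 3 of all 21 tested members with one and in 3.21% of all promoters.

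In the PI3 kinase, AKT and mTOR list 6 of 28 members rose and 3 fell, and without control replicate 2 the rises numbered 3. Pik3cd, the delta catalytic subunit of PI3 kinase, had 58.1, 49.0 and 59.3 after withdrawal, against 120.1, 94.1 and 125 in the control, a 2.03-fold fall with no overlap (adjusted p = 0.000278), and its dimmer probe set fell by 0.61 on the log2 scale. The other falls, Akt1 and Rheb, did not hold when single arrays were left out, and without withdrawal replicate 1 or control replicate 3 only 1 fall was left. Sesn2, a stress-induced restrainer of mTORC1, had 329, 303 and 288 after withdrawal and 209, 197 and 196 in the control (1.53-fold higher, adjusted p = 3.35e-05).

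Regulators of the G1 phase were called in 15 of 35 tested members, 8 higher and 7 lower, with a median log2 change of -0.01, and without withdrawal replicate 2 or the 3 low arrays the falls numbered 4. The rises were led by inhibitors of proliferation. Cdkn1c, the inhibitor p57, had 218, 210.1 and 232 after withdrawal, against 111, 120.1 and 106 in the control (1.96-fold, adjusted p = 8.17e-07). Ccng1, cyclin G1, a p53 target, had 1423, 1451 and 1447 after withdrawal and 779, 758 and 822 in the control. Its arrays differed little within a group and the groups stood far apart, a 1.83-fold rise (log2 change 0.87 ± 0.04 SE, adjusted p = 2.91e-09). Mxd4, an antagonist of MYC, rose 1.49-fold (adjusted p = 0.00509). Among the falls beside Ccnd2 was E2f6, a repressor of the E2F family (1.37-fold, adjusted p = 6.75e-05).

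Targets of p53, listed as such from other systems, were higher in 8 of 20 tested members and lower in 1, with a median log2 change of 0.16. Without withdrawal replicate 2 the rises numbered 5. Beside Ccng1 and Sesn2, Tp53inp1, which promotes p53-dependent cell death, had 82.5, 81.8 and 88.4 after withdrawal, against 54.5, 55.8 and 56.2 in the control (1.52-fold, adjusted p = 6.69e-05). The fall was Perp, a p53 target that also builds desmosomes: 66.3, 76.6 and 52.1 after withdrawal, against 157, 152 and 189 in the control (2.58-fold, adjusted p = 2.68e-06). Without withdrawal replicate 3 a second fall was called. Other well-known targets, named after their values were seen, did not pass the threshold. They were Cdkn1a, the inhibitor p21 (log2 change -0.07, adjusted p = 0.589), Ddb2 (0.04, adjusted p = 0.616) and Gadd45a (-0.31, adjusted p = 0.231). Over the list, 16 of the 20 log2 changes were above 0. That share was not particular to p53 targets. It was 38 of 46 for ribosomal protein genes and 36 of 45 for heat shock and chaperone genes, against 22 of 53 for DNA replication genes. The share over all named genes was not counted.

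Cell death genes moved in both directions within the same pathways, with 4 of 24 tested members higher and 5 lower, and 2 rises were left without withdrawal replicate 2 or control replicate 2. Bik, a BH3-only promoter of apoptosis, had 588, 536 and 558 after withdrawal, against 223, 217 and 189 in the control. The rise was 2.68-fold with no overlap (log2 change 1.42 ± 0.10 SE, adjusted p = 8.18e-08). Bbc3, the BH3-only gene PUMA, had 191, 225 and 212 after withdrawal and 159, 147 and 171 in the control (1.32-fold, adjusted p = 0.00664). Mcl1, an inhibitor of apoptosis, fell 1.29-fold (adjusted p = 6.58e-05). Caspase genes were among the falls. Casp8, which starts death receptor signalling, had 85.8, 72.7 and 87.7 after withdrawal, against 129, 155 and 151 in the control (1.77-fold, adjusted p = 0.000347), and its other probe set fell by 0.47 on the log2 scale. The effector gene Casp6 fell 1.44-fold (adjusted p = 0.000173).

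**Figure D3:**
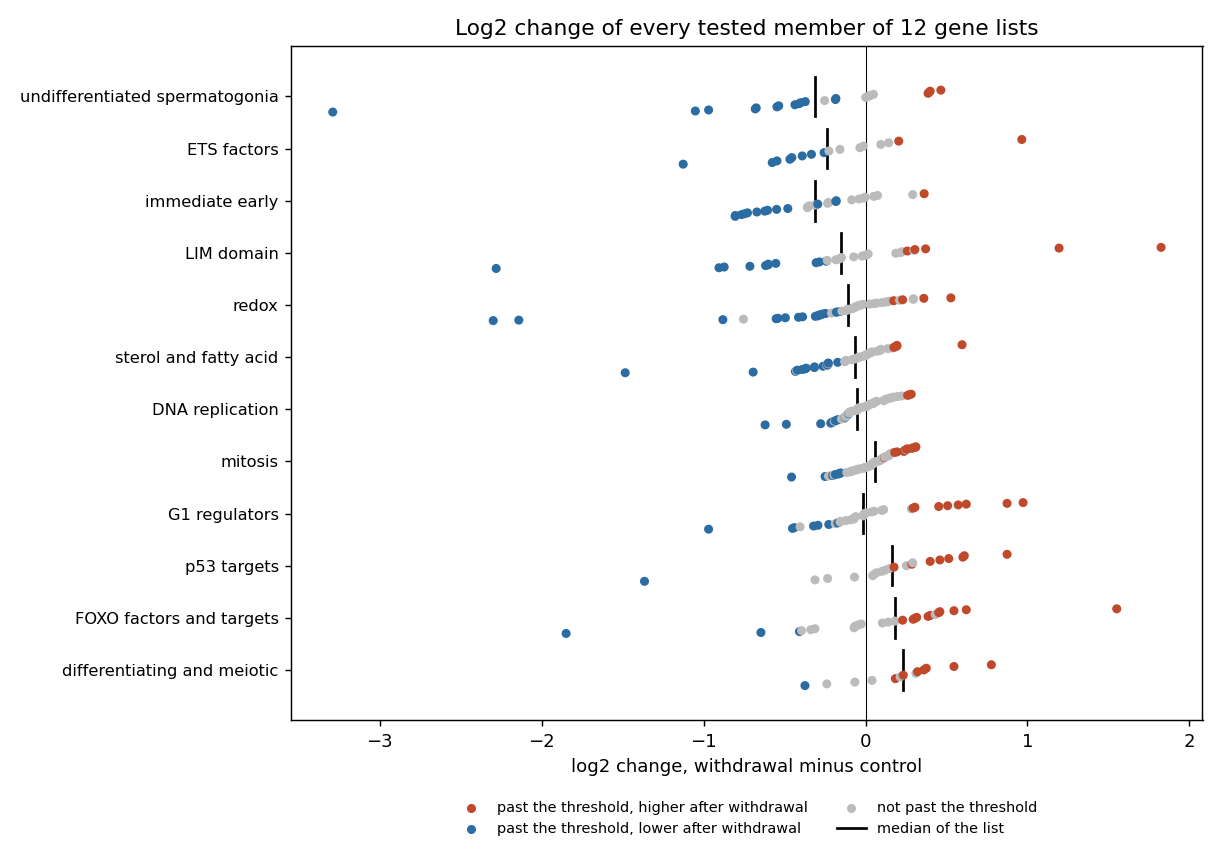
Log2 change (withdrawal minus control) of every tested member of 12 gene lists, 1 point per gene, with the median of each list as a black bar. The medians lie below 0 for undifferentiated spermatogonia, ETS factors, immediate early, LIM domain and redox genes, and above 0 for p53 targets, FOXO factors and targets and the differentiating and meiotic genes.

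More DNA replication genes fell than rose. More mitosis genes rose than fell, as did more of all named genes, and most changes in both lists were small. Of 53 replication genes 11 were lower and 3 higher, with a median log2 change of -0.05. The falls numbered 6 without withdrawal replicate 2 and 7 without control replicate 3 or the 3 low arrays. Tk1, the S-phase thymidine kinase, had 204, 214 and 228 after withdrawal, against 319, 314 and 362 in the control (1.54-fold, adjusted p = 5.38e-05), though a much dimmer probe set of it was at -0.01 (adjusted p = 0.978). Pole2, a subunit of DNA polymerase epsilon, had 338, 363 and 414 after withdrawal and 490.0, 547 and 524 in the control (1.4-fold lower, adjusted p = 0.000669). Orc2, of the origin recognition complex, fell 1.21-fold (adjusted p = 0.00258).

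Of 60 mitosis genes 12 were higher and 7 lower, with a median of 0.06. The rises numbered 6 without the 3 low arrays, and the falls 4 without withdrawal replicate 1 or 3 or the 3 low arrays and 3 without control replicate 3. Nusap1, which bundles spindle microtubules, had 1174, 1207 and 1177 after withdrawal, against 895, 984 and 1029.6 in the control (1.23-fold, adjusted p = 0.00159). The separase gene Espl1 rose 1.24-fold (adjusted p = 0.00978, and 0.0505 with only the 6 arrays). The condensin subunit gene Ncaph fell: 1918, 1824 and 1889.6 after withdrawal, against 2411, 2696 and 2633 in the control (1.37-fold, adjusted p = 7.63e-06). Of 54 DNA damage and repair genes 8 rose and 4 fell, near the background, with 5 rises without control replicate 1 or the 3 low arrays and as few as 1 fall without withdrawal replicate 2. Brca2 rose 1.28-fold (adjusted p = 0.00332) and Fancd2, of the Fanconi anaemia pathway, 1.24-fold (adjusted p = 0.00277).

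Redox genes fell widely, with 17 of 49 tested members lower and 4 higher, a median log2 change of -0.11 and 14 to 18 falls when single arrays were left out. The falls include 1, that of Sqor, which passed the low-value filter only through the control arrays, where it is high. Gpx2, a glutathione peroxidase best known in epithelium, had 229, 232 and 242 after withdrawal, against 1051, 1167 and 1249.8 in the control. The arrays of each group lay close together and the groups far apart, 4.92-fold (log2 change -2.30 ± 0.07 SE, adjusted p = 1.22e-11). Nos3, the endothelial nitric oxide synthase, had 56.7, 56.6 and 50.6 after withdrawal and 279.7, 208 and 239 in the control (4.41-fold lower, adjusted p = 5.11e-09). The glutathione reductase gene Gsr fell 1.47-fold (adjusted p = 0.00494).

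Further falls in this list, named after their values were seen, included known targets of the transcription factor NRF2 and its own gene. Hmox1, heme oxygenase 1, had 375, 356 and 353 after withdrawal, against 532, 516 and 528 in the control (1.46-fold lower, adjusted p = 3.32e-06). The sulfiredoxin gene Srxn1 fell 1.41-fold (adjusted p = 0.000279) and the quinone reductase gene Nqo1 1.31-fold (adjusted p = 0.00118). Nfe2l2, which encodes NRF2, fell 1.22-fold (adjusted p = 0.00612, and 0.0657 with only the 6 arrays). Gclm, another known target of NRF2, did not pass the threshold (log2 change -0.11, adjusted p = 0.334). The rises were Mt3, a metallothionein gene (1.44-fold, adjusted p = 0.00117), the microsomal glutathione transferase gene Mgst3 (1.28-fold, adjusted p = 0.000225), the thioredoxin inhibitor gene Txnip (1.17-fold, adjusted p = 0.0024) and Mt2A (1.13-fold, adjusted p = 0.00664).

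NRF2 binds the antioxidant response element, searched here as TGACNNNGC on both strands. It was found in the 250 bases upstream of 1 of the 14 fallen redox genes with a promoter (Gpx2) and 1 of the 3 risen ones (Mt2A). Of all 44 tested redox genes with a promoter 9 held it, and of all promoters 10.1%. Gpx2 is shown because it is the redox gene that fell most and holds a match 13 bases upstream of its start, in capitals and on the opposite strand (RefSeq, GRCr8, chr6:101230034-101230283, minus strand).
Gpx2 promoter: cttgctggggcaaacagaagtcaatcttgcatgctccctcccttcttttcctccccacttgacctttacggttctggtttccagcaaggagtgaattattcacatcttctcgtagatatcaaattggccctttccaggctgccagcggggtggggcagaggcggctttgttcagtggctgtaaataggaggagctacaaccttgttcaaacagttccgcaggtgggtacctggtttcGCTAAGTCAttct

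Glycolysis and the pentose phosphate pathway had 9 of 33 tested members lower and 4 higher, with a median log2 change of -0.07. Without control replicate 3 the falls numbered 5, and the rises numbered 2 without withdrawal replicate 2 or 3 or control replicate 1 or 3. Tkt, the transketolase of the pentose phosphate pathway, had 29.3, 61.6 and 58.3 after withdrawal, against 97.0, 110.0 and 113 in the control (2.25-fold lower, adjusted p = 0.00119). Its withdrawal replicate 1 was far below the other two, and all 3 were below the control. Prps2, which makes the ribose precursor of nucleotides, had 463, 504 and 500.5 after withdrawal and 837, 905 and 783 in the control (1.72-fold lower, adjusted p = 1.06e-06). The glucose transporter gene Slc2a3 fell 1.69-fold (adjusted p = 0.0009). Pfkfb3, an activator of glycolysis, rose: 55.5, 42.7 and 46.2 after withdrawal, against 31.1, 30.6 and 30.3 in the control (1.56-fold, adjusted p = 0.000423).

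Hypoxia-responsive genes split, 6 higher and 3 lower of 20 tested, and the falls were the larger and the steadier. Epas1, which encodes HIF-2 alpha, had 59.9, 53.2 and 56.1 after withdrawal, against 137, 157 and 165 in the control (2.71-fold, adjusted p = 3.76e-06). Adm, the secreted peptide adrenomedullin, had 67.6, 66.9 and 68.4 after withdrawal and 135, 146 and 136 in the control (2.05-fold lower, adjusted p = 1.99e-06). Bhlhe40, a repressor that also belongs to the circadian clock, had 28.1, 31.0 and 46.1 after withdrawal, against 105, 97.9 and 103 in the control (2.98-fold lower, adjusted p = 3.16e-06). Of the rises only those of Ankrd37 (1.52-fold, adjusted p = 0.00138) and Ddit4 held in every fit that left out 1 array, and 3 and 2 rises were left without withdrawal replicate 2 and control replicate 2.

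Sterol and fatty acid genes fell in 14 and rose in 5 of 44 tested members, with a median log2 change of -0.06. Leaving out single arrays left 10 to 13 falls, and 1 to 3 rises without withdrawal replicate 1 or 2 or control replicate 2 or 3. Elovl6, a fatty acid elongase, had 586, 537 and 549.7 after withdrawal, against 951, 846 and 911 in the control (1.62-fold lower, adjusted p = 3.43e-06). Nr1h3, the oxysterol receptor LXR alpha, was dim, at 9.58, 14.6 and 9.29 after withdrawal and 19.9, 27.3 and 52.4 in the control. Its control arrays were widely spread, and it passed the low-value filter only through them, where it is high. It is 1 of the 14 falls, so that count rests partly on it, and its fold and test are not given. The sterol enzyme gene Sc5d fell 1.34-fold (adjusted p = 0.00249), but its other probe sets, at -0.27 and -0.28, missed the threshold (adjusted p = 0.139 for each). The sterol response element, ATCAC and CCAC with any base N between them, was found upstream of 0 of 36 tested members with a promoter and in 0.23% of all promoters.

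Arg2 and Smox, which act in arginine and polyamine metabolism, were among the 30 largest falls, and no list of that pathway was counted. Arg2, mitochondrial arginase, which makes the polyamine precursor ornithine, had 140.3, 143 and 152 after withdrawal, against 393, 452 and 524 in the control (3.12-fold lower, adjusted p = 1.5e-07). Smox, spermine oxidase, had 100.4, 90.1 and 106 after withdrawal and 275, 296 and 284 in the control (2.89-fold lower, adjusted p = 6.59e-08). Both fell with no overlap between the groups. Among 151 solute carriers 23 fell and 12 rose, with a median of 0.00, and the rises numbered 6 without withdrawal replicate 1 and 7 without control replicate 2 or the 3 low arrays. Slc35e4, an orphan carrier gene, fell 2.36-fold (adjusted p = 0.000561), while the GDP-fucose transporter gene Slc35c1 rose 1.68-fold (adjusted p = 0.00376).

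LIM domain proteins, many of which link actin filaments to adhesions or shuttle to the nucleus, were called in 16 of 30 tested members, 11 lower and 5 higher, with a median log2 change of -0.15. Leaving out single arrays left 9 or 10 falls and 4 to 6 rises. The fall of Fhl2, under 16 on all 6 arrays, was tested only because of the arrays with GDNF back. Fblim1, migfilin, which joins filamin to adhesions, had 31.8, 31.1 and 20.6 after withdrawal, against 139, 141 and 119 in the control. The fall was 4.86-fold with no overlap (log2 change -2.28 ± 0.18 SE, adjusted p = 5.14e-07). Mical1, an enzyme that takes actin filaments apart, had 61.8, 65.5 and 68.3 after withdrawal and 112, 90.1 and 121 in the control (1.64-fold lower, adjusted p = 0.00246). The LIM homeobox gene Lhx2 fell 1.87-fold (adjusted p = 0.00303).

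Crip1 and Crip2, which encode small cysteine-rich LIM proteins, moved the other way. Crip1 had 194, 223 and 165 after withdrawal, against 64.3, 54.6 and 45.7 in the control (3.54-fold higher, adjusted p = 1.06e-07), and Crip2 had 73.7, 71.6 and 71.0 after withdrawal and 26.4, 32.6 and 36.3 in the control (2.29-fold higher, adjusted p = 4.07e-05). A CArG box lay upstream of 2 of the 11 fallen LIM genes (Fblim1 and the dim Fhl2) and of 1 of the 5 risen ones (Fhl1). It was found in 4 of all 27 tested LIM genes with a promoter, called or not, and in 1.5% of all promoters. The Fblim1 promoter is shown because that gene fell most in the list, and the box, in capitals, begins 60 bases upstream of its start (RefSeq, GRCr8, chr5:159196817-159197066, minus strand).
Fblim1 promoter: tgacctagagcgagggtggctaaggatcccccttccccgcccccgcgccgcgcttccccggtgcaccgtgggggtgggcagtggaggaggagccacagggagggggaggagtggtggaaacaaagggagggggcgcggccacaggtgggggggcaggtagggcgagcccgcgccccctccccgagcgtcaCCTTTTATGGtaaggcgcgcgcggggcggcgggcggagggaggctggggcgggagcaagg

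Of 7 tested integrins 3 were lower and 0 higher at every omission of a single array, with a median log2 change of -0.22: Itga6, Itgb1 and Itgb5, the last with 345, 332 and 337 after withdrawal, against 462, 430.2 and 435 in the control (1.31-fold, adjusted p = 0.00281). Of 12 S100 and annexin genes, which encode calcium-binding proteins, 5 fell and 0 rose, with a median of -0.31. The fall of S100a3, under 16 on all 6 arrays, was tested only because of the arrays with GDNF back, and without it 4 falls are left. Anxa3 had 9.23, 9.2 and 9.38 after withdrawal and 36.7, 44.2 and 38.3 in the control (4.27-fold lower, adjusted p = 1.35e-07, and 2.48-fold with values under 16 set to 16). Anxa7 had 751, 693 and 786 after withdrawal, against 1106, 1083 and 1034 in the control (1.45-fold lower, adjusted p = 3.27e-06). The claudin and keratin list did not lean downward: 3 of 16 tested members rose and 3 fell, with a median of 0.10. The tight junction gene Cldn4 had 329, 309 and 269 after withdrawal and 602, 608 and 634 in the control (2.04-fold lower, adjusted p = 1.53e-07). Matrix proteins and proteases had 5 of 20 tested members lower and 1 higher, and 3 falls without control replicate 2. The matrix metalloproteinase gene Mmp9 fell 2.85-fold (adjusted p = 3.27e-05) and Timp1, an inhibitor of such enzymes, 1.62-fold (adjusted p = 3.21e-05). Mmp9 read 13.7, 15.8 and 17.0 after withdrawal, near or under 16, so its fold is uncertain. The 1 rise, Mmp11, was lost without withdrawal replicate 1 or control replicate 2, and 2 rises were called without withdrawal replicate 3 or control replicate 1.

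The 30 largest rises and falls included genes that act in membrane traffic and actin control. Arap3, an Arf GTPase-activating protein that PI3 kinase lipids recruit, had 197, 196 and 175 after withdrawal, against 832, 638 and 851 in the control. The groups were far apart, 4.06-fold (log2 change -2.02 ± 0.10 SE, adjusted p = 2.26e-09). Rac2, a Rac GTPase best known in blood cells, rose: 46.3, 36.9 and 36.5 after withdrawal, against 16.9, 17.1 and 11.3 in the control (2.67-fold, adjusted p = 8.31e-06). The Arf GTPase-activating protein gene Asap3 had 79.7, 77.8 and 70.8 after withdrawal and 41.4, 40.6 and 42.9 in the control (1.82-fold higher, adjusted p = 0.000349). Of 6 tested RGS genes, which shorten G protein signalling, 3 fell and 0 rose, with a median of -0.30. Rgs16 had 57.5, 64.0 and 56.5 after withdrawal, against 121, 99.7 and 119.8 in the control (1.91-fold lower, adjusted p = 0.000411), and Rgs10 fell 1.61-fold (adjusted p = 0.000292).

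**Figure D4:**
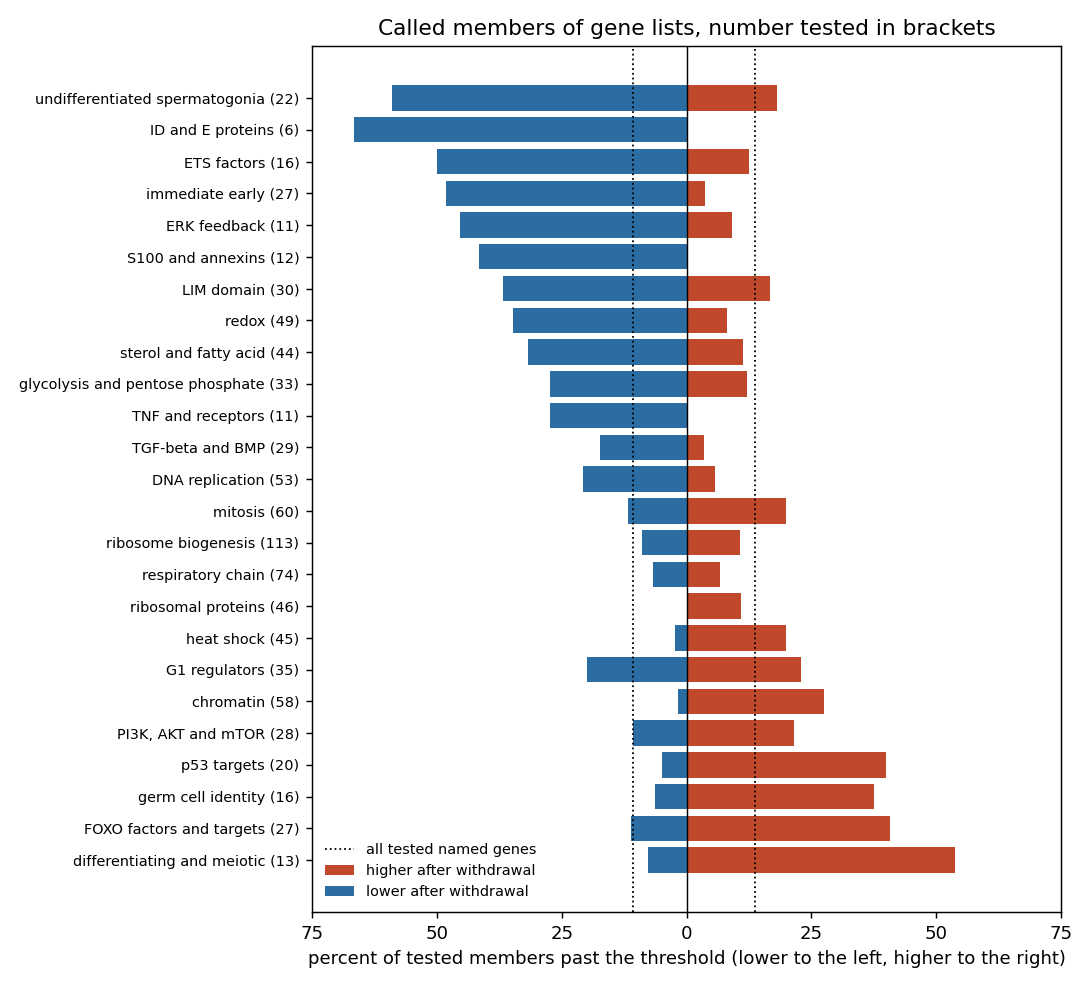
Percent of tested members past the threshold in 25 gene lists, lower after withdrawal to the left and higher to the right, with dotted lines at the shares over all named genes (10.8% lower and 13.8% higher). Lists at the top extend mostly to the left, those at the bottom mostly to the right, and ribosomal protein, respiratory chain and ribosome biogenesis genes stay within the dotted lines.

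Among secreted factors and their receptors, the TGF-beta family had 5 of 29 tested members lower and 1 higher, with a median log2 change of -0.02. Tgfb1 had 285, 277 and 299.7 after withdrawal, against 468, 567 and 521 in the control (1.8-fold lower, adjusted p = 7.95e-07). Endoglin, a co-receptor of the family encoded by Eng, had 295, 279 and 259 after withdrawal and 622, 496 and 612 in the control (2.07-fold lower, adjusted p = 2.16e-06). Bmp4 was dimmer, at 19.8, 16.1 and 19.6 after withdrawal and 47.8, 27.0 and 38.8 in the control (2-fold lower, adjusted p = 0.000426). Ligand and co-receptor fell together here with no overlap between the groups. Skil, an inhibitor of SMAD transcription, fell 1.3-fold (adjusted p = 0.000167), while Smad3, a signal transducer of TGF-beta, rose 1.32-fold (adjusted p = 0.0102, and 0.0529 without the 3 low arrays). Without control replicate 3 the rises numbered 2.

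TNF ligands, receptors and adaptors fell in 3 and rose in 0 of 11 tested members, with a median of -0.18, the same counts at every omission of a single array. Tnfrsf25, death receptor 3, had 588, 555 and 567 after withdrawal, against 1908, 1607 and 1649 in the control (3.01-fold lower, log2 change -1.59 ± 0.07 SE, adjusted p = 4.27e-10). The adaptor gene Traf4 had 194, 201 and 200.5 after withdrawal and 415, 356 and 407 in the control (1.97-fold lower, adjusted p = 5.96e-06). Tnfsf12, the ligand TWEAK, fell 1.61-fold (adjusted p = 2.48e-05).

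Notch genes were called both ways, 4 lower and 2 higher of 18 tested, with 2 falls without withdrawal replicate 1 or control replicate 2. Its ligand genes parted: Jag1 had 679.9, 667 and 532 after withdrawal, against 913, 864 and 881 in the control (1.42-fold lower, adjusted p = 0.000718), and Jag2 had 321, 350.0 and 318 after withdrawal, against 227, 215 and 222 in the control (1.49-fold higher, adjusted p = 0.000139). Hey1, a target of Notch, had 202, 164 and 194 after withdrawal and 84.5, 83.0 and 83.3 in the control (2.22-fold higher, adjusted p = 1.96e-05). Of 25 Wnt pathway genes 3 fell and 2 rose, with 4 rises without withdrawal replicate 3 or control replicate 1. Among the falls were TCF transcription factor genes, Tcf7l2 1.89-fold (adjusted p = 0.00599, and 0.0516 with only the 6 arrays) and Tcf7l1 1.57-fold (adjusted p = 0.00311). The secreted Wnt inhibitor gene Sfrp1 rose, with 98.7, 133 and 77.3 after withdrawal, against 52.6, 57.4 and 49.7 in the control (1.89-fold, adjusted p = 0.000854). Of 5 tested hedgehog genes only the ligand gene Dhh was called, at 15.7, 15.6 and 15.5 after withdrawal, against 62.8, 66.9 and 63.3 in the control (4.13-fold lower). All 3 withdrawal arrays of Dhh lay just under 16, the low-value limit, and Dhh passed the filter only through the control arrays, where it is high, so its test is not given.

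In a combined FGF and IGF list of 13, 5 genes rose and 1, Fgfr3, fell, with a median log2 change of 0.11. Igf1r, the IGF1 receptor and a known FOXO target, had 855, 790.3 and 824 after withdrawal, against 637, 673 and 674 in the control (1.24-fold, adjusted p = 0.000206). The IGF-binding protein genes Igfbp6 and Igfbp7 rose 1.64-fold (adjusted p = 0.000817) and 1.39-fold (adjusted p = 0.00245), and another probe set of Igfbp6 was at 0.36 (adjusted p = 0.0598). Of 5 EGF family genes 1 fell, the ligand gene Nrg1 (1.7-fold, adjusted p = 0.00296, and 0.0585 without the 3 low arrays). Of 24 cytokine and JAK-STAT genes 4 fell and 3, Kit among them, rose. Csf3r, the G-CSF receptor gene, had 13.02, 12.9 and 10.6 after withdrawal and 49.96, 42.2 and 52.5 in the control (3.96-fold lower, adjusted p = 1.49e-06). All withdrawal arrays of Csf3r read under 16, so its fold is uncertain. Its list kept 2 falls without withdrawal replicate 2 or control replicate 3, and 1 rise without withdrawal replicate 1 or 2 or control replicate 2. Gas6, the ligand of the TAM receptors, rose: 808, 861 and 735 after withdrawal, against 378, 362 and 427 in the control (2.06-fold, adjusted p = 1.31e-06), with another probe set at 0.22 (adjusted p = 0.0359).

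Heat shock and chaperone genes leaned upward, with 9 of 45 tested members higher, 1 lower and a median log2 change of 0.09, most of it small. Hspa1a, the inducible HSP70, had 283, 226 and 226 after withdrawal, against 45.0, 32.9 and 47.9 in the control. The rise was 5.88-fold (log2 change 2.56 ± 0.17 SE, adjusted p = 7.81e-08), and the next largest rise was that of Stip1. Hspa1a has a near-identical copy, Hspa1b, and their messages cannot be told apart with certainty on these arrays. Stip1, which links HSP70 to HSP90, had 5750.4, 5633 and 5539 after withdrawal and 4372, 4665 and 4875 in the control (1.22-fold, adjusted p = 0.000166). Hsph1, the HSP70 exchange factor HSP110, rose 1.16-fold (adjusted p = 0.00105). Hspb1, the small heat shock protein HSP27, fell: 972, 966 and 906 after withdrawal, against 1559, 1409 and 1691 in the control (1.63-fold, adjusted p = 2.37e-05). Without the 3 low arrays the rises numbered 5, and without control replicate 1 or the 3 low arrays a second fall was called. A heat shock element, searched on both strands as GAA, NN, TTC, NN and GAA in a run, lay upstream of 2 of the 8 risen members with a promoter (Hsph1 and Hspd1, of which Hspd1 is named after its values were seen). It was found in 3 of all 38 tested members with one and in 0.663% of all promoters. The Hsph1 promoter is shown as a risen member with its match near the start, 36 bases upstream, in capitals and on the opposite strand (RefSeq, GRCr8, chr12:10427118-10427367, plus strand).
Hsph1 promoter: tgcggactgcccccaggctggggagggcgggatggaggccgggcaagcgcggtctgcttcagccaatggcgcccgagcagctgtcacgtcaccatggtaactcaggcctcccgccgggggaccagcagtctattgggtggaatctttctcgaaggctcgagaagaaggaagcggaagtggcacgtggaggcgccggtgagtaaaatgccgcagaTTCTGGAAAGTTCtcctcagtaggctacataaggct

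Chaperones of the endoplasmic reticulum did not lean upward: 5 of 28 fell and 2 rose, with 3 falls without withdrawal replicate 2 or 3 and 1 rise without withdrawal replicate 1 or 2 or control replicate 2. Edem1, which sends misfolded proteins to degradation, had 846, 739 and 717 after withdrawal, against 1162, 1147 and 1177 in the control (1.52-fold lower, adjusted p = 1.45e-06), with a dim probe set at -0.28 (adjusted p = 0.0799). Sdf2l1, a stress-inducible component of the same organelle, had 497, 517 and 459 after withdrawal and 309.8, 326 and 361 in the control (1.48-fold higher, adjusted p = 2.61e-05). In the ATF4 and amino acid response list 5 of 26 rose and 3 fell, with 3 rises without control replicate 2 or 3. Phgdh, the first enzyme of serine synthesis, rose 1.25-fold (adjusted p = 0.00477). Eif2ak3, the kinase PERK upstream of ATF4, fell 1.32-fold (adjusted p = 0.00022) and Ppp1r15a, which reverses eIF2 alpha phosphorylation, 1.3-fold (adjusted p = 0.00246).

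Among developmental transcription factors, 2 neighbouring genes of the HOXC cluster fell sharply. Hoxc4 had 482, 453 and 443 after withdrawal, against 1699, 1649 and 1763 in the control (3.71-fold lower, log2 change -1.89 ± 0.05 SE, adjusted p = 1.5e-12), and its dimmer probe set fell by 0.41 on the log2 scale. Hoxc5 had 62.9, 43.1 and 33.7 after withdrawal and 185, 109 and 156 in the control (3.26-fold lower, adjusted p = 4.67e-05), with more spread in both groups. Of 14 tested HOX and TALE genes 3 fell and 1 rose. The rise was that of Pbx3, a HOX cofactor gene, at 477, 447 and 419.7 after withdrawal, against 292, 297 and 311 in the control (1.49-fold, adjusted p = 0.000204). Of 15 forkhead genes 5 rose and 3 fell, with 3 rises without withdrawal replicate 1 or the 3 low arrays. Foxp1 rose 1.33-fold (adjusted p = 0.00434), but among its 4 tested probe sets those at 0.11 and 0.28 missed the threshold (adjusted p = 0.407 and 0.058). Sox13 fell 1.62-fold (adjusted p = 1.4e-06) where Sox3 rose.

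Chromatin regulators were higher in 16 of 58 tested members and lower in 1, with a median log2 change of 0.12, and without withdrawal replicate 1 or the 3 low arrays the rises numbered 10. Kmt2c, a histone H3 lysine 4 methyltransferase, had 1558, 1518 and 1544 after withdrawal, against 951, 991 and 1063 in the control (1.54-fold higher, adjusted p = 6.7e-06). Ehmt2, the H3 lysine 9 methyltransferase G9a, had 1998, 1913 and 1894 after withdrawal and 1415, 1186 and 1394 in the control (1.46-fold higher, adjusted p = 9.06e-05). Hdac11, a deacetylase gene, rose 1.69-fold (adjusted p = 0.00111) and the methylated DNA reader gene Mbd2 1.43-fold (adjusted p = 2.53e-05). Hdac11 read 17.2, 17.8 and 15.2 in the control, near or under 16, so its fold is uncertain. Kdm6b, the H3 lysine 27 demethylase that growth signals can induce, was the fall: 255, 271 and 229 after withdrawal, against 351, 411 and 422 in the control (1.57-fold, adjusted p = 0.000178).

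Genes of ribosome assembly and of the respiratory chain were called at or below the background. Of 113 ribosome biogenesis genes 12 rose and 10 fell, with a median log2 change of 0.00 and 6 or 7 rises without control replicate 2, withdrawal replicate 1 or 2 or the 3 low arrays. Of 46 ribosomal protein genes 5 rose and 0 fell, and the largest rises were small, 1.16-fold for Rpl35 (adjusted p = 0.000841) and 1.1-fold for Rpl13a (adjusted p = 0.00687). Respiratory chain genes had 5 higher and 5 lower of 74, and mitochondrial ribosome genes 9 higher and 1 lower of 73, with 5 rises without control replicate 2 or the 3 low arrays. Respiratory chain rises ranged from 2 to 7 and falls from 1 to 5 as single arrays were left out, the lowest being without withdrawal replicate 2 and control replicate 3. Translation factors were higher in 12 of 58 and lower in 3, with 7 rises without withdrawal replicate 2 and 5 falls without control replicate 1. Proteasome subunits leaned the other way, 7 lower and 1 higher of 36, with 4 falls without withdrawal replicate 1 or 2. Psmb7, a catalytic subunit gene, had 4194, 4129 and 4439.6 after withdrawal, against 5153, 6012 and 5577 in the control (1.31-fold lower, adjusted p = 0.000103). Of 61 autophagy and lysosome genes 12 rose and 3 fell. The lysosomal enzyme gene Ppt1 had 344, 349 and 346 after withdrawal and 206, 187 and 245 in the control (1.64-fold higher, adjusted p = 1.81e-05), and Hexa rose 1.32-fold (adjusted p = 0.000101).

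Markers of other cell types were set beside these groups, and their part in the results was not tested. Of 10 endothelial markers on the arrays 5 passed the low-value filter, and their mean log2 intensity per array was 5.48 to 5.53 after withdrawal and 6.20 to 6.32 in the control. Nos3, Kdr and Egfl7 fell and Pecam1 and Flt1 did not pass the threshold, with log2 changes of 0.20 and -0.04. Kdr, the VEGF receptor gene, read 6.9, 8.36 and 7.72 after withdrawal, against 24.01, 20.3 and 21.0 in the control (1.36-fold lower with values under 16 set to 16). It passed the low-value filter only through the control arrays, where it is high, so no test is given for it. Kdr is part of the endothelial means, and the difference between those means rests mainly on Kdr and Nos3 (log2 change -2.14). It is therefore no fall shared by the 5 markers. The call of Egfl7 was lost in 5 of the 6 fits that left out 1 array. The defining endothelial markers Tek, Tie1, Vwf, Emcn and Esam read under 16 on all 6 arrays. Of 6 tested Sertoli markers Dhh fell and Clu rose (1.14-fold, adjusted p = 0.00264), with array means of 6.55 to 6.68 after withdrawal and 6.88 to 6.96 in the control, and Amh and Gata4 read under 16. The summed intensity of the 6 ran the other way, 3828 to 4113 after withdrawal and 3461 to 3664 in the control, and without Dhh the array means were 7.07 to 7.23 after withdrawal and 7.04 to 7.16 in the control. Of 15 mesenchymal markers Twist1 and Fbn1 fell (1.52-fold, adjusted p = 0.00492, and 1.38-fold, adjusted p = 0.00396), and Twist1 was at 0.0855 without the 3 low arrays. Mesenchymal array means spread widely in both groups and overlapped, 7.56 to 8.37 after withdrawal and 7.95 to 8.37 in the control. Of 11 Leydig and peritubular markers 1 was tested and not called.

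Several of the largest changes belonged to none of these families. Among the rises, Sulf2, which trims heparan sulfate outside the cell, had 315, 337 and 382 after withdrawal, against 191, 141 and 154 in the control (2.14-fold, adjusted p = 3.94e-06). Arrdc3, an arrestin-domain gene, had 914, 848 and 964 after withdrawal, against 473, 568 and 453 in the control (1.83-fold, adjusted p = 5.04e-05). These rises lay above every control array and held in each fit that left out 1 array. Among the falls, Selenom, a selenoprotein of the endoplasmic reticulum, had 156, 214 and 208 after withdrawal, against 622, 727 and 651 in the control (3.48-fold, adjusted p = 7.73e-08). Ddr1, a collagen receptor kinase gene, had 21.5, 21.1 and 21.2 after withdrawal and 61.4, 75.6 and 86.2 in the control (3.46-fold, adjusted p = 7.91e-07). Reep1, which shapes the endoplasmic reticulum, had 156, 149 and 135 after withdrawal, against 488, 443 and 462 in the control (3.17-fold, adjusted p = 1.43e-08). For these 3 genes too the groups did not overlap. Upk1b, a uroplakin gene, fell 3.03-fold (adjusted p = 8.34e-08).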

How the data were processed

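RNA of spermatogonial stem cell cultures from rats was labelled with biotin and hybridised to single-colour expression arrays, with 3 cultures in each of 5 groups, independent per the labels. The deposited intensities are linear, as judged from their range, with 1 value per probe set and array. The submitters' processing notes name GCRMA and Partek 6.3, with no role or order. GCRMA in general normalizes arrays together and corrects background by probe sequence, so dim values depend on its background estimate and a shift shared by all transcripts cannot be seen.

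Intensities were taken to log2 and normalized no further. Leaving aside 57 control probe sets, those with a log2 intensity of 4 (intensity 16) or more on 3 or more of the 15 arrays were tested, 15856 of 31099. Platform annotation, updated through a RefSeq table (GRCr8), gave 1 symbol to 20832 probe sets, several to 436 and none to 9831. Only single symbols were used, and the probe set brightest on average over the 15 arrays stands for its gene. Withdrawal minus control was fitted in R 4.3.3 with limma 3.58.1 (a linear model, then eBayes following the intensity trend) over all 5 groups, two-sided, with Benjamini-Hochberg adjustment over all tested probe sets and a threshold of 0.05. The fit was tested on simulated data. Tables, the motif search in the 250 bases before each gene start and the plots were made in Python 3.11.15 with pandas 2.3.3, numpy 2.4.6 and matplotlib 3.10.9.

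The gene lists and members were chosen with earlier results of these data known, so no list was tested: counts and medians are given beside those of all genes. Genes were named by a rule: at most 4 rises and 4 falls per list with the largest change, all GDNF receptor members, the 30 largest rises and 30 largest falls whose groups do not overlap and whose brighter group averages at least 32, and Bcl6b, Etv5, Id4, Foxo1, Foxo3, Ret and Gfra1. Exceptions are said in the text. SE stands for limma's moderated standard error of the log2 change. Titles number the replicates, but deviations of same-numbered withdrawal and control arrays from their group means correlated at 0.236, -0.011 and -0.065, so the numbers were not taken to pair samples. The alternatives were other filters, a floor, other normalizations, no intensity trend, only the 6 arrays, a replicate block, a mesenchymal marker covariate and arrays left out.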

Additional observations from a re-analysis of the deposited data

Results flagged for a closer look

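Of the 51 measured control probe sets, which were outside the test of genes, 5 stood at least 0.5 higher on the log2 scale after withdrawal with all 3 withdrawal arrays above all 3 control arrays, and 0 stood that much lower. The control probe set of rat 5S ribosomal RNA averaged 2044 ± 45.8 after withdrawal and 1263 ± 58.4 in the control (SD, n = 3 each). The other 4 stand for bacterial spike transcripts, which the cells do not make. ThrX-3 averaged 952.9 after withdrawal and 680.1 in the control, and PheX-5 averaged 233.3 after withdrawal and 163.9 in the control. A lysine gene probe set, LysX-M, averaged 188.3 after withdrawal and 127.1 in the control, and a second for that gene averaged 204.7 after withdrawal and 137.8 in the control. Control replicate 1 was the dimmest of the 6 arrays on these 4. Their part in the gene counts was not tested.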

How the results depend on the processing

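Of 550 called genes that the lists hold or the naming rule picked, none changed direction under any alternative that tested it. The called probe sets, 3342 in the main setting, numbered 2166 with only the 6 arrays of the compared groups (1130 higher and 1036 lower), 2416 without replicate 1 of withdrawal, control and 4 h together (1173 higher and 1243 lower), 2664 with no low-value filter and 3618 with the mesenchymal marker covariate. Leaving out each array in turn gave 2476 to 2986 called, 1257 to 1664 higher and 1167 to 1350 lower, and at 2-fold or more 135 to 153, 19 to 27 higher and 111 to 128 lower. The causes were not tested, but the fits with fewer arrays also have less residual information. Replicate numbers did not pair the arrays, and a replicate block gave 3520 called, 1920 higher and 1600 lower. Under it 11 of the 550 genes were no longer past the threshold, against 176 with only the 6 arrays and 153 without the 3 arrays together. With only the 6 arrays the falls numbered 11 among redox, 8 among sterol and fatty acid and 6 among replication genes, and the rises 9 among chromatin, 5 among p53 target and 4 among differentiating and meiotic genes. With array medians set equal the split was 1738 higher and 1634 lower. Values under 16 were treated as too dim to rank, so folds against them are uncertain.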
